A study of Mus musculus with 18 samples.

Results

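The step from 24 h to 48 h of retinoid treatment was followed in F9 cells, an embryonal carcinoma line from the mouse. It was taken as the 48 h array minus the 24 h array of the same ligand, which used 8 of the 18 arrays of the study (4 ligands, 1 array for each ligand and time). ATRA is all-trans retinoic acid, a ligand of all retinoic acid receptors (RARs). The other ligands were, per the labels, the RARγ-specific BMS961, the RARα-specific BMS753 and the RARβ-specific BMS641. The dose was 1 µM for ATRA, BMS753 and BMS641 but 0.1 µM for BMS961, whose dose is therefore not matched to the rest. The cells of all groups were grown on gelatine-coated plates in medium with foetal calf serum. The remaining arrays, used here only as context, held each ligand at 2 h and 6 h and 2 ethanol vehicle arrays at 48 h. F9 is a tumour-derived line, so its endoderm genes describe that line and not an embryo.

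RARs sit on DNA as heterodimers with RXR, and their ligand turns a repressing complex into an activating complex at retinoid response elements. F9 cells resemble the undifferentiated cells of the early embryo, and retinoic acid turns them into primitive endoderm. That layer gives rise to the parietal endoderm, which secretes the thick basement membrane of the yolk sac, and to the visceral endoderm, which takes up nutrients and makes serum proteins. GATA and SOX factors head this programme, and laminin, type IV collagen and endocytic receptors are among its late products.

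The array levels are log2 values, so a difference of 1 is 2-fold. Pou5f1, the pluripotency factor OCT4, was at 11.80 to 12.21 on all 18 arrays, but 1 gene does not set the state of the cells. The mean level of 28 pluripotency genes at 48 h was 9.39 with ATRA and 9.53 with BMS961. It was 9.82 with BMS753 and 9.89 with BMS641, against 10.16 and 9.79 on the vehicle arrays. The visceral endoderm marker Afp stayed at 4.13 to 4.71 on all of them. Levels of all probe sets ran from 2.05 to 14.36. Fewer cells of a type and less RNA per cell cannot be told apart in such bulk samples. The ATRA arrays stood apart from the other ligands' arrays already at 2 h: 326, 350 and 414 genes differed at least 2-fold between ATRA and BMS961, BMS753 and BMS641, against 8 to 26 genes between any pair of the BMS compounds. Over the 12146 probe sets with no listed gene, deviations from the mean array correlated on average at 0.283 among the 4 ATRA arrays and vehicle replicate 1, at 0.005 among the other 13 arrays and at -0.185 across. The step compares arrays of the same ligand, so both arrays of each pair lie on the same side of that divide. Whether the divide affects a step was not tested. Values without the ATRA pair are given beside the main results.

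The size of the step differed between the ligands, and it was largest with ATRA. Of 19938 genes, 607 (3.04%) were higher by 2-fold or more at 48 h than at 24 h with ATRA, and 145 (0.727%) were lower by as much. With BMS961 95 genes (0.476%) were 2-fold higher and 37 (0.186%) lower. The counts were 4 (0.0201%) and 10 (0.0502%) with BMS753 and 1 (0.00502%) and 1 (0.00502%) with BMS641. The SD of the step over genes under ATRA, BMS961, BMS753 and BMS641 was 0.46, 0.28, 0.20 and 0.18, around medians of -0.06, 0.06, 0.01 and -0.01. These orders describe 1 pair of arrays per ligand and were not tested. Among the probe sets with no listed gene, 2-fold differences made up 2.63%, 3.61%, 2.92% and 2.86% in the same order of ligands. The matching shares of genes were 3.77%, 0.66%, 0.07% and 0.01%. Those probe sets thus do not measure the scatter of genes, and its part in the gene counts was not tested. The vehicle arrays, which share agent and time, themselves differed at least 2-fold in 311 (1.56%) and 354 (1.78%) genes, more than the BMS961 pair did. Vehicle replicate 1 and replicate 2 lay on opposite sides of the array divide.

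Most of what stepped up with the RARγ agonist stepped up with ATRA too. The 81 genes (0.406% of all) that were at least 2-fold higher at 48 h with both made up 85.3% of the BMS961 genes and 13.3% of the ATRA genes. Downward, 11 genes (0.0552%) were shared, 29.7% of the BMS961 genes and 7.59% of the ATRA genes. The few genes that moved 2-fold with BMS753 or BMS641 were 15 in all, among them Esrp1, Sfn, Cldn6 and Ap1m2 on the lower side, and Calcoco2 (1.38 with BMS753) and the oxytocin receptor Oxtr (1.04 with BMS641) on the higher side.

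**Figure D1:**
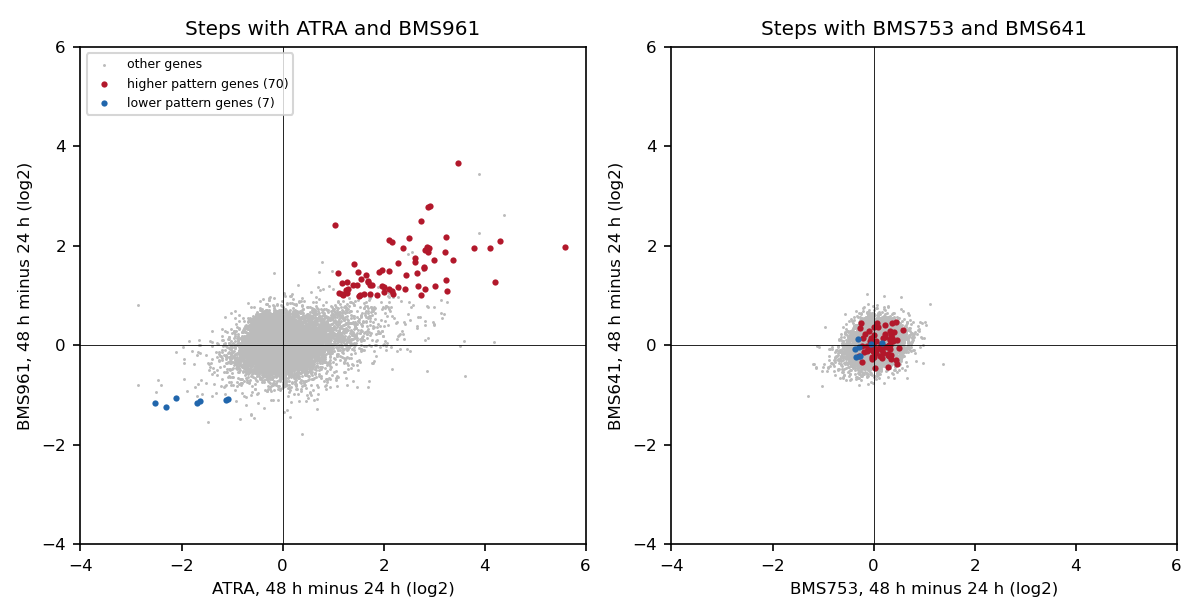
Step of each of 19938 genes, 48 h minus 24 h on the log2 scale, for ATRA (x) against BMS961 (y) on the left and BMS753 (x) against BMS641 (y) on the right, with equal axes. The 70 genes in red were at least 2-fold higher with ATRA and BMS961 and under 1.5-fold with BMS753 and BMS641, the 7 in blue the same on the lower side; this choice sets where coloured points lie, while the wider spread of the grey points on the left is free of it.

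A step shared by all 4 ligands was tested in limma with the ligand as a block, adjusting over all genes by Benjamini-Hochberg. The spread in that fit came from departures of the ligands from the common step. It therefore holds real differences between ligands, and its p-values say nothing of how repeated cultures would vary. No gene passed: 0 of 19938 (0%) were higher and 0 (0%) lower at an adjusted p under 0.05, with a smallest adjusted p of 0.459. At an unadjusted p under 0.05 there were 1635 genes (8.2%), 843 higher and 792 lower at 48 h. Without the ATRA pair the adjusted count was also 0 and the unadjusted count 2992. All 4 steps had the same sign in 1586 genes on the higher and 2054 on the lower side. Only Esrp1 was at least 1.5-fold lower with every ligand, no gene was 1.5-fold higher with every ligand, and none reached 2-fold with all 4.

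The 12 genes with the smallest unadjusted p among those with 1 sign were named after their values had been seen, and none of them passed the adjusted test. Esrp1 encodes an epithelial splicing regulator. Its levels at 24 h and 48 h were 6.61 and 5.26 with ATRA, 5.37 and 4.59 with BMS961, 6.39 and 5.10 with BMS753, and 7.28 and 6.25 with BMS641. Every ligand's 48 h array was thus below its 24 h array, by a mean of 1.11 ± 0.11 (SE, n = 4 pairs; limma adjusted p = 0.459). With each of the 3 BMS compounds the level was lower at every time than at the time before, starting from 7.62 to 8.12 at 2 h, while the ATRA arrays went from 5.06 at 2 h up to 6.61 at 24 h. The vehicle arrays at 48 h were at 6.30 and 8.07, so the level at 48 h lay below both with every ligand. Grhl2, a transcription factor of epithelial cells, was lower at 48 h by 0.59, 0.65, 0.90 and 0.44 under ATRA, BMS961, BMS753 and BMS641 (limma adjusted p = 0.606). Ap1m2, the epithelial adaptor subunit that sorts proteins to the basolateral membrane, was lower by 0.93, 1.12, 1.01 and 0.43 in the same order. The vehicle arrays differed in these genes as well, with Grhl2 at 5.46 and 7.20 and Ap1m2 at 7.70 and 8.56.

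Of the 12 genes 11 were lower at 48 h. They included Plk2, a stress-responsive kinase (mean step -0.69), Sfn, the 14-3-3 sigma protein of epithelia (-0.75), Coch (-0.82), Zfp459 (-0.60) and Tfap2c, an AP-2 factor of trophoblast and germ cells (-0.50). The vehicle arrays lay further apart than the mean step for Coch (6.91 and 9.60), Sfn (6.41 and 7.91), Zfp459 (6.02 and 7.47) and Tfap2c (7.55 and 6.52). For Plk2 they were at 8.91 and 9.59. Pth1r, the receptor for parathyroid hormone and a known parietal endoderm gene, was the only gene on the higher side, with steps of 0.90, 0.57, 0.66 and 0.45 and levels at 48 h of 6.80, 6.05, 5.75 and 5.52 with ATRA, BMS961, BMS753 and BMS641. Each of these levels lay above both vehicle arrays (5.46 and 5.04).

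**Figure D2:**
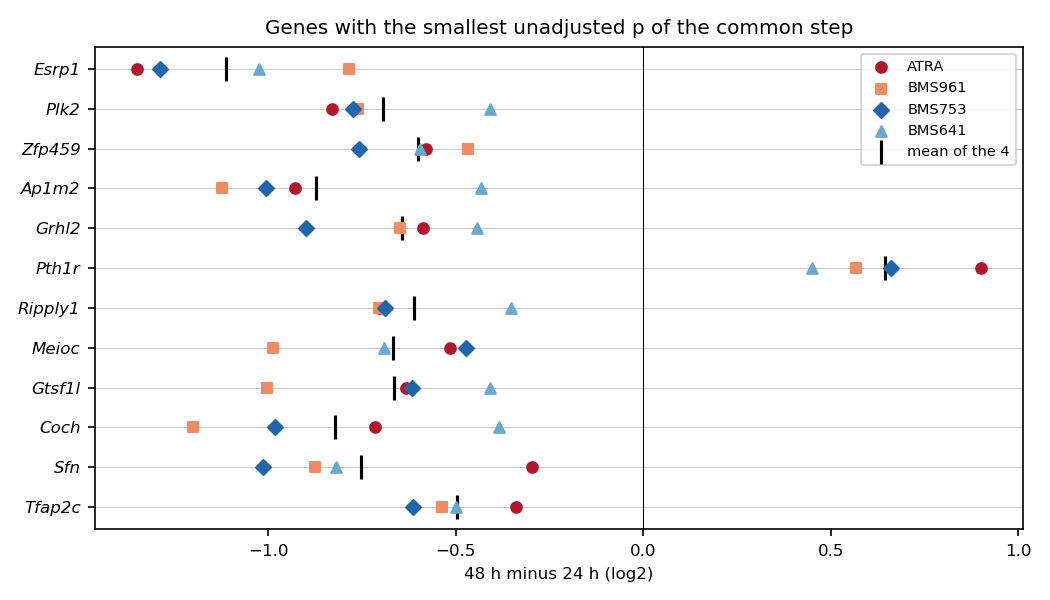
Step from 24 h to 48 h (log2, x axis) with each of the 4 ligands for the 12 genes with the smallest unadjusted p of the common step among those with 1 sign for all ligands; the black bar is the mean of the 4 steps. That choice puts all 4 points of a gene on the same side of 0; 11 genes lie to the left and Pth1r to the right, and none of the genes passed the adjusted test.

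The difference in step between ATRA with BMS961 and BMS753 with BMS641 was then tested in limma, with the ligand as a block and the class by time interaction as the term of interest. It passed for 7 of 19938 genes (0.0351%), all with the larger step under ATRA and BMS961, and for 0 genes in the other direction. At an unadjusted p under 0.05 there were 1034 genes, 683 with the larger and 351 with the smaller step. The 7 genes were Cubn, Dab2, Dkk1, Lamb1, Pdgfra, Runx1 and Stard8. The spread in this fit came from departures of the ligands from the step of their class. Its p-values thus say nothing of how repeated cultures would vary. The classes were chosen with earlier results of these data known, so the p-values are no independent test of that split. Without the ATRA pair, which leaves BMS961 alone against the other agonists, the 7 differences ran from 2.04 (Stard8) to 3.61 (Dab2). That fit holds no measure of how the BMS961 step varies. The calls depended on the scaling: with quantile normalization or with each array centred on its median only Cubn and Dkk1 passed, and the other 5 had adjusted p from 0.0513 to 0.0831. Their differences were of much the same size, as for Dab2 (3.61 and 3.51, against 3.52 as deposited) and Stard8 (2.12 and 2.02, against 2.03). With only the 9969 genes above the median level tested, 4 of the 7 were in the fit and no gene passed in limma (smallest adjusted p 0.144, 661 genes at an unadjusted p under 0.05).

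Among receptors and signalling proteins, Pdgfra and Dkk1 passed the test. Pdgfra, the platelet-derived growth factor receptor alpha and an early marker of primitive endoderm, was at 6.15 and 10.04 with ATRA and at 6.53 and 9.98 with BMS961, at 24 h and 48 h. It was at 5.21 and 6.16 with BMS753 and at 4.70 and 5.16 with BMS641, against 6.24 and 4.92 on the vehicle arrays. The ATRA and BMS961 levels at 48 h were nearly equal although the doses differed, and both lay above every other array. The difference in step between the classes was 2.96 ± 0.25 (SE, 2 ligands per class; limma adjusted p = 0.0369). Pdgfra was also 0.96 higher at 48 h with BMS753, which kept it out of the quiet genes described further on.

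Dkk1, a secreted inhibitor of WNT signalling, showed no difference before 48 h. Its level was between 4.80 and 5.36 on the 12 arrays at 2 h, 6 h and 24 h, then 7.82 with ATRA and 7.99 with BMS961, while BMS753 stayed at 4.77 and BMS641 at 4.91. Vehicle was at 5.41 and 4.99. The difference in step was 2.85 ± 0.18 (95% interval 2.43 to 3.27; limma adjusted p = 0.016).

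Runx1, a transcription factor best known from blood formation, followed the same course. All arrays at 2 h, 6 h and 24 h were between 4.75 and 5.08, and at 48 h Runx1 was at 7.81 with ATRA and 7.35 with BMS961 but at 5.09 with BMS753 and 5.04 with BMS641. The steps of 2.73 and 2.50 against 0.22 and 0.22 gave a difference of 2.40 ± 0.18 (limma adjusted p = 0.0271). Runx1 was the only transcription factor among the 7.

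The endocytic genes Dab2 and Cubn had the largest and the third largest difference of the 7. Dab2 is a clathrin adaptor of primitive endoderm that binds the tails of lipoprotein receptors. It was at 7.80 and 11.27 with ATRA and at 6.09 and 9.74 with BMS961, at 24 h and 48 h, and at 5.53 to 6.14 on all 4 arrays of BMS753 and BMS641 at these times. The step differed by 3.52 ± 0.29 between the classes (limma adjusted p = 0.0369). Cubn encodes cubilin, a large receptor for vitamin B12 with intrinsic factor and for albumin. It was at 6.21 and 9.07 with ATRA and at 4.73 and 7.50 with BMS961, and between 4.43 and 4.66 with BMS753 and BMS641. The difference in step was 2.93 ± 0.18 (limma adjusted p = 0.016). Neither gene was flat before 24 h in the ATRA series: Dab2 was at 7.73 at 2 h and 5.74 at 6 h, and Cubn at 6.32 and 4.73. Vehicle replicate 1 was also above replicate 2, at 8.20 against 5.51 for Dab2 and 6.44 against 4.63 for Cubn. These are arrays of the set that stood apart; its part in the ATRA levels was not tested, and without the ATRA pair the difference was 3.61 for Dab2 and 2.89 for Cubn. A further probe set of Dab2, with a mean level of 3.15, showed steps of -0.06 with ATRA and 0.51 with BMS961. When the probe sets of a gene were averaged, Dab2 did not pass (1.84, limma adjusted p = 0.188).

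Lamb1, the laminin beta 1 chain, was the basement membrane gene among the 7. It was at 8.21 and 10.71 with ATRA, 7.68 and 9.84 with BMS961, 7.83 and 7.53 with BMS753 and 7.91 and 7.70 with BMS641. The 16 arrays other than ATRA and BMS961 at 48 h lay between 7.53 and 8.37, so these 2 arrays stood clear of all the rest. The difference in step was 2.58 ± 0.19 (95% interval 2.11 to 3.04; limma adjusted p = 0.0271). Stard8, a protein with a lipid-binding START domain, was at 8.57 and 8.31 at 48 h with ATRA and BMS961, after 6.46 and 6.19 at 24 h, and at 5.40 to 5.96 on all vehicle, BMS753 and BMS641 arrays. Its 2 steps of 2.12 and 2.13 gave the smallest difference of the 7, 2.03 ± 0.18 (limma adjusted p = 0.0431).

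**Figure D3:**
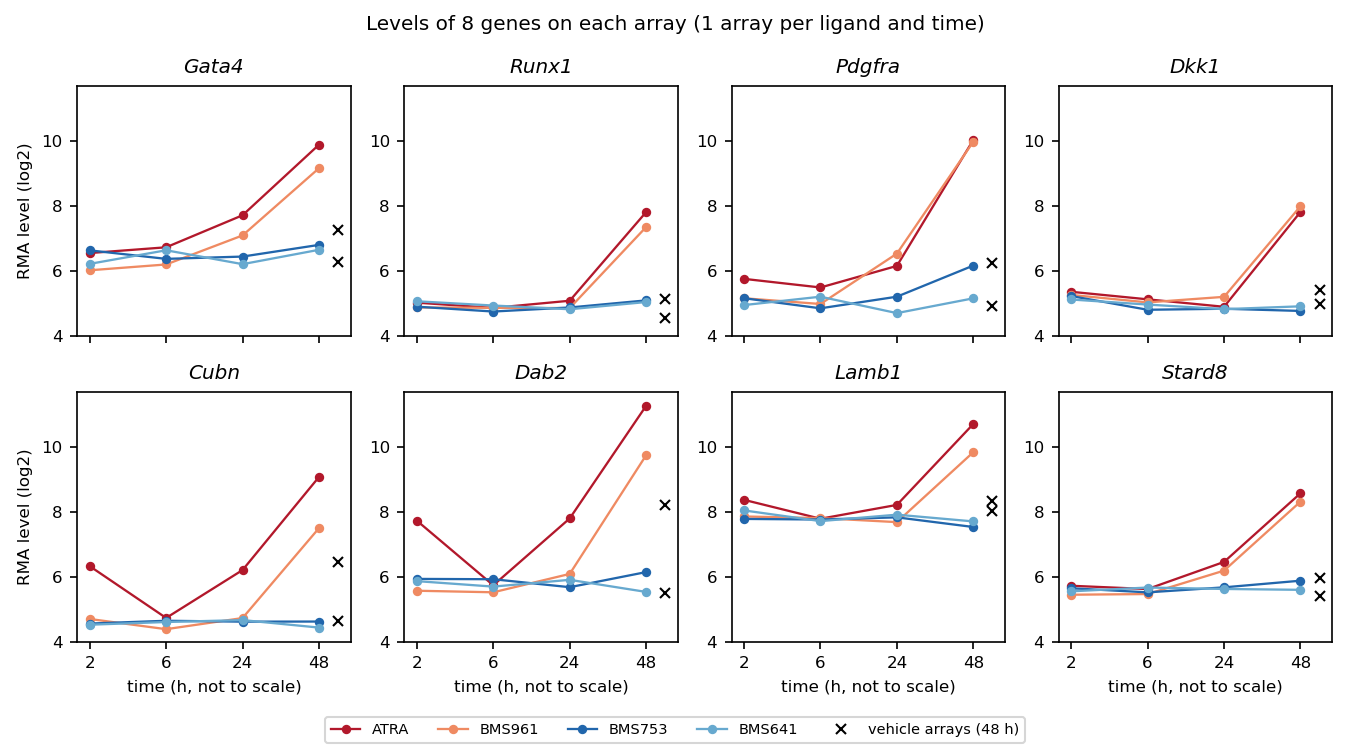
RMA level (log2, y axis) of 8 genes on each array at 2, 6, 24 and 48 h (x axis, not to scale), 1 line per ligand and 1 array per point, with the vehicle arrays of 48 h as crosses. The lines of ATRA and BMS961 climb between 24 h and 48 h while those of BMS753 and BMS641 stay low; the ATRA lines of Cubn and Dab2 start high at 2 h, and vehicle replicate 1 is the upper cross of both.

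Because these genes stepped together, promoters were searched for the 5 of the 7 with a single start in the RefSeq table (GRCm38.p6), over 250 bases up to the start site. Those of Cubn and Dkk1 held none of the letters searched. The other 3 are printed, all on the plus strand: Lamb1 at chr12:31265043-31265292, Stard8 at chrX:99042331-99042580 and Pdgfra at chr5:75152001-75152250. Capitals mark matches on either strand to GGGCGG (Sp1), AGGTCA (the nuclear receptor motif) and TGACGT (the core of the CRE); letters of SOX factors (ACAATG) and of GATA factors (AGATAA) were searched too.
Lamb1: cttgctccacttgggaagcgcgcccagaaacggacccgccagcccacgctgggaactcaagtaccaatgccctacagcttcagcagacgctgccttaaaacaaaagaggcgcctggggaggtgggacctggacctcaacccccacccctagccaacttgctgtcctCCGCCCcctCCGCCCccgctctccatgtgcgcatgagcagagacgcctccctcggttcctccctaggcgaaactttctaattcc
Stard8: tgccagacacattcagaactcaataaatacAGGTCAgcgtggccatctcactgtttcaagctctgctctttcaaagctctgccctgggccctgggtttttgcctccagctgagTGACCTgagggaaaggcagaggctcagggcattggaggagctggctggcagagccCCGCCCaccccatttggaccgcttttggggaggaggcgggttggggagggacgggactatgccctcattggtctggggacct
Pdgfra: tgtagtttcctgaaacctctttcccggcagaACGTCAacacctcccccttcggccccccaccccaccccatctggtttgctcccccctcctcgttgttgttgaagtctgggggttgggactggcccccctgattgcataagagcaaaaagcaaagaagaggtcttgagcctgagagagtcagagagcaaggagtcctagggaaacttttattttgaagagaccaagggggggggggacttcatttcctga
Lamb1 held the Sp1 letters at positions -84 and -75 from its start, Stard8 the nuclear receptor letters at -220 and -137 and the Sp1 letters at -82, and Pdgfra the CRE letters at -219. Among 63 promoters of the 49 matched genes of the pattern described next, taken from 250 bases before to 50 after the start, AGGTCA occurred in 16 (25.4%), against 16.3% of all 32851 promoters of that length. GGGCGG occurred in 24 (38.1%, against 35.7%), AGATAA in 7 (11.1%, against 11.2%), ACAATG in 3 (4.76%, against 12.6%) and TGACGT in 4 (6.35%, against 7.51%). These are matches of letters and were not tested.

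A wider set was taken by size alone. Genes at least 2-fold higher at 48 h with both ATRA and BMS961, and within 1.5-fold in either direction with BMS753 and BMS641, numbered 70 (0.351%), and 7 (0.0351%) showed the same on the lower side. The opposite pattern, 2-fold with BMS753 and BMS641 and quiet with ATRA and BMS961, was shown by 0 genes. Only 14 genes moved 2-fold in either direction with BMS753 and 2 with BMS641. That count therefore had little room to differ from 0 and says nothing of the direction of the pattern. With BMS961 alone in place of both inducers, the counts were 79 higher and 21 lower. With ATRA 78 of the 79 genes had a step above 0, but only 12 of the 21 had a step below 0. The steps chose these genes and are given as a description. The limma class differences and p-values printed for members of the pattern use the same steps, so they lend it no support. The median step of the 70 genes was 2.18 with ATRA and 1.37 with BMS961, and the ATRA step was the larger in 64 of them. The step with BMS961 was a median of 0.674 times the step with ATRA on the log2 scale. By the rule all steps with BMS753 and BMS641 were small (medians 0.16 and -0.02).

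The 24 h and 48 h levels fed the rule, and those at 2 h and 6 h took no part in it. At 6 h the median level of the 70 genes was 5.55, 5.46, 5.52 and 5.51 under ATRA, BMS961, BMS753 and BMS641. At 24 h it was 5.76, 5.80, 5.62 and 5.61 in the same order, close to the 5.81 and 5.54 of the vehicle arrays. The change from 6 h to 24 h had a median of 0.22 with ATRA and 0.24 with BMS961, and 7 and 5 of the 70 genes were 2-fold higher over that interval. By 48 h the medians were 8.20 with ATRA and 7.35 with BMS961, against 5.84 and 5.64 with the other agonists. The number of genes above both vehicle arrays went from 21 at 24 h to 69 at 48 h with ATRA and from 24 to 68 with BMS961. With BMS753 it went from 15 to 23 and with BMS641 from 12 to 11. The rule favours low 24 h and high 48 h levels with ATRA and BMS961, so these counts do not date an onset. Matching shares over all genes were not taken, here or for the change from 6 h to 24 h. Vehicle replicate 1 was above replicate 2 by a median of 0.27 in the 70 genes, with 6 at least 2-fold above and 3 at least 2-fold below. Up to 24 h the ligands were thus close to each other in the median of these genes.

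Of the 3 primitive endoderm transcription factors among the 70, Gata4 was at 7.72 and 9.89 with ATRA and 7.09 and 9.17 with BMS961, and at 6.21 to 6.80 with BMS753 and BMS641, against 7.26 and 6.28 for vehicle. Its difference in step was 1.72 ± 0.17 and missed the threshold (limma adjusted p = 0.08). Sox17, an endoderm SOX factor, was at 4.62 and 5.87 with ATRA and 4.39 and 5.51 with BMS961, while the vehicle arrays differed by 0.84 (4.93 and 4.09). Foxa2, a forkhead factor of endoderm, was at 5.51 and 6.70 with ATRA, 5.50 and 6.53 with BMS961, and at 5.37 to 5.74 with the others. Tfec, a relative of the MITF family, was at 4.16 and 6.98 with ATRA and 3.81 and 5.72 with BMS961. Tbx20, a T-box factor best known from the heart, was among the 6 genes with a larger step under BMS961, 1.64 against 1.42 with ATRA.

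Gata6 and Foxq1 stepped the same way but fell outside the pattern because BMS753 exceeded the 1.5-fold limit. Gata6 is the factor that can start the primitive endoderm programme by itself. It stood at 8.41 at 2 h, 7.83 at 6 h, 8.52 at 24 h and 11.30 at 48 h with ATRA, and at 6.69, 7.25, 9.42 and 10.93 with BMS961. With BMS753 it was at 6.35, 6.60, 7.41 and 8.03, with BMS641 at 6.05 to 6.40, and on the vehicle arrays at 7.08 and 6.03. Gata6 with BMS961 was thus above every BMS753, BMS641 and vehicle level by 24 h. Gata4 with BMS961 at 24 h (7.09) was above every BMS753 and BMS641 level (at most 6.80) and between the vehicle arrays (7.26 and 6.28). With ATRA, Gata4 at 24 h (7.72) was above both vehicle arrays. Which of these genes came first was not tested. Foxq1, a forkhead factor, had steps of 4.39, 2.62, 0.82 and -0.16 with ATRA, BMS961, BMS753 and BMS641. In the limma fit Gata6 and Foxq1 had differences of 1.74 ± 0.41 and 3.18 ± 0.58 (adjusted p = 0.654 and 0.468).

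The remaining genes are ordered by known role and not by a tested theme, since 12 of the 70 were in any of the lists. Among receptors and ligands, Fgfr2, a receptor for fibroblast growth factors, was at 6.61 and 9.61 with ATRA and 7.35 and 9.06 with BMS961, and between 6.99 and 7.22 with BMS753 and BMS641. Klb, the coreceptor beta-klotho for endocrine FGFs, was at 4.79 and 7.17 and at 4.33 and 6.29, against 4.28 to 4.69 with the others (limma adjusted p = 0.0803). Flrt3, a transmembrane protein that binds FGF receptors, had steps of 3.23 and 2.17 with ATRA and BMS961. The ligands Nrg1 (1.19 and 1.25) and Nrg2 of ERBB receptors and Bmper (1.77 and 1.22), a secreted regulator of BMPs, belonged here as well. Gpr50, an orphan relative of the melatonin receptors, had the largest ATRA step of the 70, from 5.11 to 10.70, and went from 4.53 to 6.50 with BMS961, while all other arrays lay between 3.85 and 4.44. The step with ATRA was more than 2 times that with BMS961 on the log2 scale, and the difference between the classes did not pass (3.95 ± 1.01, limma adjusted p = 0.766).

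Among secreted and matrix genes, Plat, tissue plasminogen activator and a classical product of differentiated F9 cells, was at 5.25 and 9.55 with ATRA, reached 7.10 at 48 h with BMS961 after a step of 2.10, and was between 4.55 and 4.79 with BMS753 and BMS641 at these times. Lama1, the laminin alpha 1 chain that assembles with Lamb1 and Lamc1 into laminin-111, was at 6.62 and 10.40 with ATRA and 7.74 and 9.70 with BMS961 (limma adjusted p = 0.472). The laminin gamma 1 chain gene Lamc1, already at 9.93 and 9.50 at 24 h, was 1.12 and 0.43 higher at 48 h and stayed outside the pattern. Sparc, a collagen-binding matrix protein, was at 9.89 and 11.89 with ATRA and 9.99 and 11.07 with BMS961. Col4a1 and Col4a2, the type IV collagen chains, share a promoter region: their start sites lie 21 bases apart on opposite strands of chromosome 8. They had steps of 2.11 and 2.30 with ATRA, 1.05 and 1.13 with BMS961, 0.74 and 0.90 with BMS753 and 0.26 and 0.28 with BMS641. Their steps were graded over the ligands, and BMS753 put both outside the pattern.

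Lrpap1, the chaperone of LDL receptor relatives, was at 10.03 and 11.75 with ATRA and 9.74 and 10.96 with BMS961, against 9.17 to 9.53 with the others. Lrp2, the megalin receptor that partners cubilin, was only 0.60 and 0.23 higher at 48 h and was at 8.29 and 8.07 at 24 h. Amn, the subunit that brings cubilin to the membrane, was 0.36 lower with ATRA and 0.26 higher with BMS961, at 6.02 and 6.15. The members of this receptor complex thus did not step together. Aqp8, a water channel, was at 4.69 and 7.59 and at 4.49 and 6.45. Cdh5, the cadherin known from endothelium, was at 4.36 and 7.22 and at 4.68 and 6.66, with all arrays of BMS753 and BMS641 between 4.41 and 4.62. Amot, angiomotin, a regulator of YAP at cell junctions, went from 5.26 to 9.36 with ATRA and from 6.29 to 8.24 with BMS961.

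At the edges of the rule, Cstdc1 and Serping1 were the members with the smallest qualifying step (1.0007 and 1.0051 with BMS961), and Bmp6 and Kirrel (both 0.99) fell just short. Dsc2 (0.57) and Gpc6 (0.51) were the members with the largest BMS753 step, and Egflam (0.60) and Gata6 (0.62) lay just outside. On the X chromosome lay 7 of the 70 genes (10%), against 3.72% of the 19856 genes with a chromosome, which was not tested. Dab2 and Tent5a had several probe sets each. Of Tent5a the further set had steps of 2.87 with ATRA and 0.18 with BMS961, so with BMS961 its probe sets disagreed.

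The 7 lower genes had median steps of -1.70 with ATRA and -1.13 with BMS961. Tdgf1, the NODAL coreceptor Cripto of stem cells, was at 11.33 and 10.21 with ATRA and at 11.33 and 10.22 with BMS961, with all other arrays between 11.64 and 12.41. The levels with both ligands were thus nearly equal at each of these times (limma adjusted p = 0.289 for the difference between classes). The others were Actn3, a muscle alpha-actinin, Ttpa, the vitamin E transfer protein, Pla2g1b, a secreted phospholipase, Map7d3, a microtubule-associated protein, H2-Bl, a histocompatibility gene, and the microRNA gene Mir363. Actn3 had first been high with ATRA, at 8.66 at 2 h and 8.79 at 24 h before 6.48 at 48 h, and it climbed to 7.90 at 24 h before 6.66 with BMS961. With BMS753 it was at 8.15 at 48 h, above ATRA and BMS961 at that time. In 5 of the 7 genes the level at 48 h was below both vehicle arrays with ATRA, and in 5 with BMS961. The rule favours low 48 h levels here, and the share over all genes was not taken.

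Mir363 lies in the Mir106a-363 cluster on the X chromosome, a relative of the Mir17 cluster of chromosome 14. Of their mature sequences 8 are shown with the seed, bases 2 to 8, in capitals, to show which share a target-pairing seed. They come from RefSeq (GRCm38.p6).
miR-363-3p: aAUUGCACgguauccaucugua
miR-92a-3p: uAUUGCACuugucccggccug
miR-106a-5p: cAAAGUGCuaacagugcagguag
miR-20b-5p: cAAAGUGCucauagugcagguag
miR-17-5p: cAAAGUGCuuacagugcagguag
miR-20a-5p: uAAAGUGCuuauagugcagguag
miR-19b-3p: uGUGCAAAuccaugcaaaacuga
miR-19a-3p: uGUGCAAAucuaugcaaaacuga
The seed AUUGCAC is shared by miR-363 and miR-92a, AAAGUGC by miR-106a, miR-20b, miR-17 and miR-20a, and GUGCAAA by miR-19a and miR-19b. The sequence of miR-19b is the same from both clusters. The array measures the precursor genes and not the mature strands. Mir363 was at 7.16 and 4.63 with ATRA, 5.70 and 4.54 with BMS961, 6.76 and 6.44 with BMS753 and 6.70 and 6.82 with BMS641. Its levels at 2 h and 6 h ran from 5.29 to 6.76, so a scatter of over 1 was seen on arrays of other ligands as well. The rest of the cluster was looked at after Mir363 had been seen. With ATRA the steps were -1.79 for Mir106a, -1.40 for Mir19b-2, -0.89 for Mir20b and -0.88 for Mir92-2. With BMS961 the same genes had steps of -0.11, 0.07, 0.02 and 0.10. Mir106a on the ATRA 24 h array, at 6.05, and on vehicle replicate 1, at 6.54, was above all other arrays (4.26 to 5.14). In the chromosome 14 cluster Mir17, Mir18, Mir19a, Mir19b-1 and Mir20a had ATRA steps of 0.11, 0.42, 0.88, 0.36 and 0.38. Of 302 microRNA genes measured, 3 were 2-fold lower with ATRA, 1 with BMS961 and none with BMS753 or BMS641. Over all genes the shares 2-fold lower were 0.727% with ATRA and 0.186% with BMS961. Counts this small do not set microRNA genes apart from the rest.

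Gene lists by known function, chosen with earlier results of these data known, describe the step and were not tested as sets. In none of the 22 lists did a gene pass the common step. Of 19 primitive and parietal endoderm transcription factors, 7 were 2-fold higher with ATRA (background 3.04%) and 5 with BMS961 (background 0.476%). The median step was 0.79, 0.53, 0.18 and 0.10 under ATRA, BMS961, BMS753 and BMS641. Other list medians are printed in this sequence of ligands and did not all rank this way. Gata4, Sox17 and Foxa2 were the 3 pattern genes among these factors. Sox7, a SOX factor of primitive endoderm, was 1.55 higher with ATRA and 0.60 with BMS961. Foxa1 was 0.78, 0.47, 0.51 and 0.22 higher, and Snai1, a driver of the epithelial to mesenchymal transition, 0.53, 0.53, 0.18 and -0.10. Over all genes the median of the mean step was 0.01.

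Parietal endoderm secreted and surface genes had the largest ATRA median of the lists. Of 22 measured members, 14 were 2-fold higher with ATRA and 7 with BMS961. The class test was passed by 3 (background 0.0351%): Dab2, Pdgfra and Cubn, which is in the visceral endoderm list as well. The medians of the parietal list were 1.49, 0.51, 0.11 and -0.00. The mean level of the list was 7.19 at 24 h and 8.76 at 48 h with ATRA, 6.82 and 7.80 with BMS961, 6.55 and 6.73 with BMS753 and 6.59 and 6.62 with BMS641, against 7.18 and 6.67 on the vehicle arrays. The 48 h arrays of ATRA and BMS961 were the highest of all 18. Srgn, the proteoglycan serglycin, went from 10.14 to 12.62 with ATRA, 8.65 to 10.47 with BMS961 and 7.31 to 8.11 with BMS753, but vehicle replicate 1 was at 9.52 and replicate 2 at 6.92. Timp3, an inhibitor of matrix proteases, was 1.94 and 0.51 higher with ATRA and BMS961, and Vim, vimentin, 2.11 and 0.73.

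Of 22 basement membrane genes, 8 were 2-fold higher with ATRA and 5 with BMS961, and the medians were 0.85, 0.32, 0.05 and 0.03. Lamb1 was the member called in the class test. Hspg2, perlecan, was 1.05 and 0.64 higher and Nid1, nidogen, 0.83, 0.65, 0.42 and 0.06. The 18 collagen folding and modification enzymes had medians of 0.53, 0.23, 0.04 and -0.01. With ATRA 4 of them were 2-fold higher and with BMS961 0. Prolyl hydroxylase genes led this list, P4ha1 with 1.21 and 0.77, P4ha2 with 1.13 and 0.46 and P3h2 with 1.25 and 0.77. Among 21 genes of the secretory pathway and the unfolded protein response, medians were 0.30, 0.10, 0.02 and 0.04. Kdelr3, a receptor that retrieves chaperones to the endoplasmic reticulum, was the member 2-fold higher with BMS961 (1.49, with 0.98 under ATRA).

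The visceral endoderm list had medians of 0.00, 0.20, 0.08 and 0.07 over 20 genes. Cubn, which like Amn is in the parietal list too, was its only member 2-fold higher with ATRA or BMS961. Afp, Ttr, Apoa1 and Apob, the serum proteins that define the visceral lineage, were at 3.45 to 5.18 on the 8 arrays of the step. The difference from the parietal list was not tested. Among the 20 keratins and junction genes 6 were 2-fold higher with ATRA and 1 with BMS961. Krt8 went from 7.86 to 10.14 with ATRA and from 8.25 to 9.22 with BMS961, and its partner Krt18 from 6.37 to 9.02 and from 5.72 to 6.07. The keratin partners stepped together with ATRA, and with BMS961 the step was 0.98 for Krt8 against 0.35 for Krt18.

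Pluripotency genes had median steps of -0.06, -0.21, -0.06 and -0.01 over 28 genes. With ATRA 3 were 2-fold lower (background 0.727%) and with BMS961 1 (background 0.186%). Pou5f1 was 0.21 lower with ATRA and 0.07 lower with BMS961, Sox2 0.41 and 0.37, and Nanog 0.33 and 0.14. Nr0b1, the stem cell factor DAX1, was 1.46 and 0.38 lower. Dnmt3b, a de novo DNA methyltransferase, was 1.30 and 0.73 higher with ATRA and BMS961 and 0.44 and 0.22 lower with BMS753 and BMS641. Sox2 was at 10.97 or more on all 8 arrays.

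The 26 DNA replication genes had a median step of -0.44, -0.14, 0.00 and -0.03, and the 23 mitosis genes -0.38, -0.16, 0.02 and 0.00. None of either list was 2-fold lower or passed a test. With ATRA 2 of 26 and 5 of 23 had a step above 0. The median ATRA step over all genes was itself -0.06, and the share of all genes above 0 was not taken. Mycn went from 6.56 to 9.71 with ATRA, from 7.87 to 8.77 with BMS961, from 8.90 to 8.50 with BMS753 and from 10.09 to 9.63 with BMS641. Its 24 h level with ATRA was below both vehicle arrays (8.90 and 10.28), and its 48 h level lay between them.

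Of 21 genes of retinoid receptors and metabolism, 0 showed the pattern of the 70 genes, and the medians were 0.18, 0.00, -0.07 and -0.06. Cyp26a1, the enzyme that degrades retinoic acid, was already at 10.97 at 24 h with ATRA and at 8.94 with BMS961, and was 1.04 and 0.20 higher at 48 h. With BMS753 it was at 6.16 and then 5.57, and with BMS641 at 4.78 and 4.87, near the vehicle level of 5.05 and 4.85. Crabp2, a carrier of retinoic acid, was 3.62 higher with ATRA but 0.62 lower with BMS961, 0.83 lower with BMS753 and 0.35 lower with BMS641. Rxrg, a partner receptor, was 2.51, 0.94 and 1.12 lower with ATRA, BMS961 and BMS753 and 0.02 lower with BMS641. Hox genes of clusters A and B had medians of 0.05, 0.07, 0.07 and 0.13 over 19 genes.

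The NODAL, BMP and TGF-beta list had its lowest median with BMS961 (-0.32, against -0.01, -0.12 and 0.03 with ATRA, BMS753 and BMS641). Id3, a target of BMP signalling, was 1.12 lower with BMS961 and 1.18 lower with BMS753, and 0.33 higher with ATRA. Id2 was 0.63, 1.41, 0.61 and 0.14 lower, and Bmp2 was 2.67 higher with ATRA and 0.58 with BMS961. Among lists for other cell types, the fibroblast list had medians of -0.16, 0.09, 0.12 and 0.18, and its mean level was 5.12 to 5.57 on all 18 arrays. The trophoblast list had -0.08, 0.13, 0.06 and -0.02 at mean levels of 5.12 to 5.38, and the neural list -0.06, -0.03, -0.03 and -0.04. Mesoderm genes had medians of -0.16, 0.14, 0.18 and 0.09, and ribosomal protein genes 0.00, -0.17, -0.05 and -0.00.

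**Figure D4:**
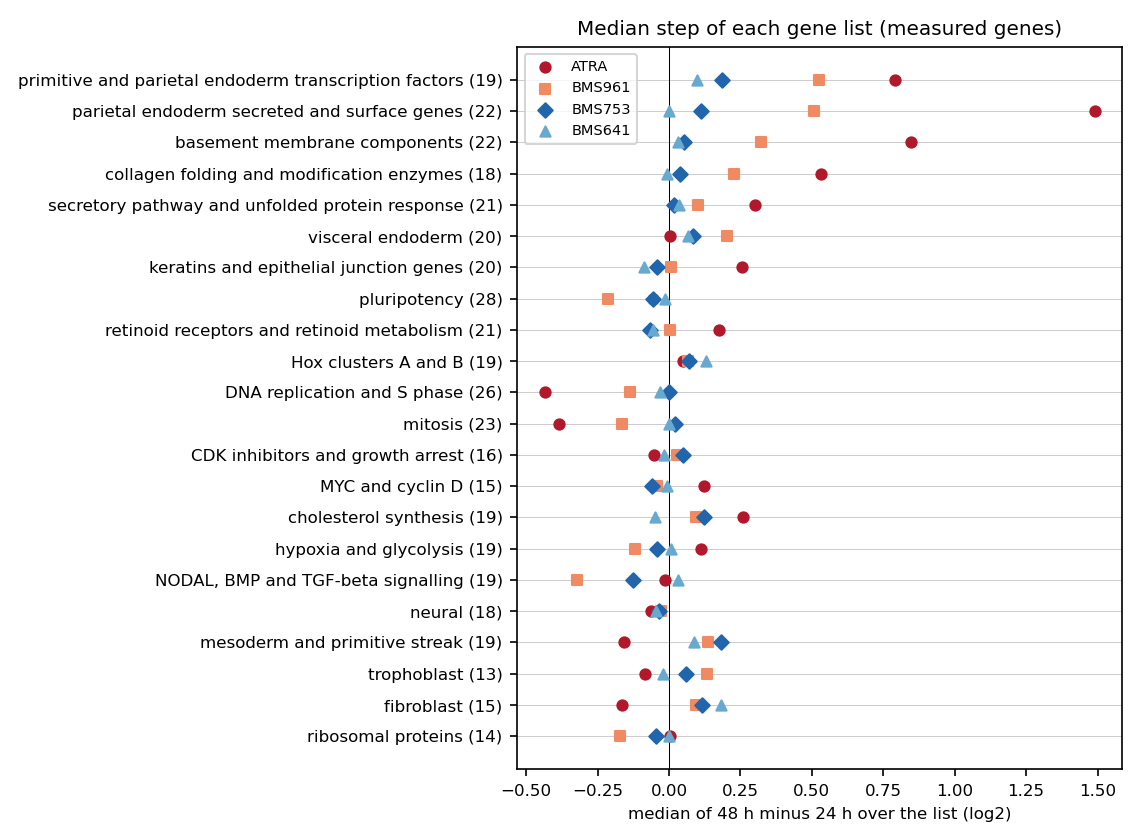
Median step from 24 h to 48 h (log2, x axis) of each of 22 gene lists, with the number of measured genes in brackets and 1 symbol per ligand. The upper 4 lists, on endoderm factors, parietal products, basement membrane and collagen enzymes, are spread out with ATRA rightmost (0.53 to 1.49) and BMS961 next, while DNA replication and mitosis lie left with ATRA (-0.44 and -0.38).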

How the data were processed

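F9 total RNA was hybridised to Affymetrix arrays that cover whole transcripts. The deposited table gives log2 levels per probe set from RMA, which the authors ran in Affymetrix Expression Console 1.1 according to the submitters' processing notes. The sources used here give no detection calls, no scan dates and no list of the arrays normalized jointly, and the values were not rescaled. Of 35556 probe sets, 21789 had 1 gene symbol in the platform annotation, 1621 had several and 12146 were not listed; 21698 were matched by Entrez number. A gene was its probe set with the highest mean level (999 genes had several), which gave 19938 genes, with no filter on dim ones.

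The steps were fitted in limma 3.58.1 (R 4.3.3) to 8 arrays with the ligand as a block. The common step left 3 residual degrees of freedom (prior 4.05), and the class by step term left 2 (prior 4.55). A gene was called where its p, adjusted by Benjamini-Hochberg, was under 0.05. The labels do not say which arrays came from separate cultures. The array number limits the precision.

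The members, the 22 gene lists (414 of 449 members measured) and the classes were chosen with earlier results of these data known. Named genes were all genes of the common step past the threshold (none, hence the 12 with the smallest unadjusted p and 1 sign, chosen after values were seen), the 15 higher and up to 10 lower pattern genes with the largest smaller step of ATRA and BMS961, called class genes, and list members. Alternatives were quantile normalization, centring, a level filter, the mean over probe sets, the robust and trended form of eBayes, a 2-fold minimum, leaving out each ligand, no ligand block, more arrays and other fold limits. Promoter and microRNA sequences are from RefSeq tables. Tables and figures were made in Python 3.11.15 (numpy 2.4.6, pandas 2.3.3, matplotlib 3.10.9).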

Additional observations from a re-analysis of the deposited data

Results flagged for a closer look

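For 7 genes the step from 24 h to 48 h differed between ATRA with BMS961 and BMS753 with BMS641 in the limma interaction test: Dab2 by 3.52, Pdgfra by 2.96, Cubn by 2.93, Dkk1 by 2.85, Lamb1 by 2.58, Runx1 by 2.40 and Stard8 by 2.03 on the log2 scale, each larger with ATRA and BMS961. Adjusted p in that limma test ran from 0.016 to 0.0431, for classes chosen with earlier results of these data known.

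Among the other genes described, 12 had steps of one sign with ATRA and BMS961 and of the opposite sign with BMS753 and BMS641, and none of them passed the limma test of the difference. It was 3.95 for Gpr50, 2.46 for Mycn, 1.99 for Serping1, 1.53 for Timp3, 1.34 for Dnmt3b, 1.27 for Nrg1, 0.98 for P4ha2, 0.84 for Lamc1, 0.68 for Mir19a, 0.19 for Mir17, 0.19 for Apoa1 and -1.88 for Actn3, with adjusted p from 0.278 to 0.935. The medians of 3 lists had opposite signs in the same way. The median step differed by 0.195 for keratins and epithelial junction genes, by 0.150 for retinoid receptors and metabolism and by -0.284 for mitosis, and the difference of these lists was not tested.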

How the results depend on the processing

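The count of genes called for the common step was 0 under every alternative run, with smallest adjusted p from 0.185 to 1. Unadjusted counts went from 480 without the ligand block to 2992 without ATRA, and centring the arrays changed the unadjusted split from 843 higher and 792 lower to 424 and 1574. The class count of 7 became 2 with quantile normalization, 2 with centred arrays, 0 with genes above the median level only and 43 with all 16 retinoid arrays; leaving out a ligand gave 23 to 2157. All 7 genes were called with 16 arrays, but that fit takes their differences from the same 24 h and 48 h arrays. Only the spread changed, so these calls are no separate support. The 7 differences kept their sign in each fit that left out a ligand. The lone ligand of a class is assumed in those fits to vary like the others, so their counts lend no weight to the 7 calls. The 70 higher pattern genes became 23 at 3-fold, 227 at 1.5-fold, 33 with BMS753 and BMS641 under 1.2-fold and 39 among genes above the median level. The 7 lower ones became 0, 56, 11 (under 2-fold) and 2 (under 1.2-fold), and 21 without ATRA, an alternative added after seeing the data. List medians of the mean step that moved were Hox A and B (0.06 to -0.0069 with quantile normalization, 0.0099 centred and 0.1726 above the median level), CDK inhibitors (-0.1199 centred), neural (-0.0403, -0.0482 and -0.0126), trophoblast (0.2389 above the median level) and fibroblast (-0.0707 above the median level). The median changed sign under at least 1 of these settings for the Hox, neural, fibroblast, trophoblast, keratin and hypoxia lists, none of which was tested. No called gene changed direction in the alternatives run. The step pairs the arrays by ligand, and without the ligand block the common step had 0 calls as well.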

Other observations

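Of the 12146 probe sets with no listed gene, chosen after seeing the data, 6 (0.0494%) showed the higher pattern and 3 the lower, at the same fold limits as the 70 and 7 genes.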
